A study of Drosophila melanogaster with 6 samples.

Results

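Heads of *Drosophila melanogaster* flies labelled *cbt* RNAi were compared with heads of flies labelled control. Each genotype was measured on 1 array at ZT3, in the day, and on 1 at ZT15, in the night, so 4 of the 6 arrays of the study were compared. ZT, Zeitgeber time, counts hours after lights-on, and the RNAi-labelled and control arrays were paired by it. Total RNA of 30 heads per sample, from flies kept for 3 to 4 days in light and dark cycles, was hybridised to Affymetrix Drosophila 2.0 arrays. The other 2 arrays, labelled over-expression of *cbt* and called cbtOE below, entered the fit for its estimate of the spread. The design text calls the control flies cyo, and CyO is the name of a second chromosome balancer. The driver, the hairpin, other transgenes, the sex and the age of the flies are not given in the sources used here. Nothing in the labels tells whether each array had its own cross or culture, and p-values measure only the spread between these arrays.

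The difference was read on every probe set of the deposited table, 10893 after 63 control probe sets were left out, and each of 8516 genes was read on its brightest probe set by mean signal. Values are log2 signals, and n is 2 arrays per genotype throughout. Paired values such as 10.21 and 10.72 give ZT3 first and ZT15 second. The medians of the 6 arrays lay between 7.35 and 7.42. On the 4 arrays compared, photoreceptor markers averaged 10.88 to 11.32 and neuron markers 9.75 to 9.99, while digestive tract markers averaged 4.55 to 5.14. The cbtOE ZT3 array stood apart in the latter, at 7.88 against 4.93 on the cbtOE ZT15 array, and both enter the fit. On 18S ribosomal RNA (5' probe set) the control ZT3 array read 7.89 against 10.23 on the control ZT15 array and 9.70 and 9.78 on the RNAi-labelled arrays.

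The gene *cbt*, or *cabut*, codes for a zinc finger transcription factor. Its level is known to follow dietary sugar, and *Pepck1*, a gene of gluconeogenesis, is among its known targets for repression. In an RNAi experiment in flies, a transgenic hairpin RNA is cut by the nuclease Dicer-2 into short interfering RNAs, which guide the destruction of the matching transcript. Head tissue holds the brain, the eyes, the antennae, fat body, muscle, cuticle and circulating blood cells (hemocytes), and all of these contribute to the signals below.

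The *cbt* signal was not lower on the RNAi-labelled arrays. Its 1 probe set read 10.21 (ZT3) and 10.72 (ZT15) in control heads against 10.99 and 11.05 in RNAi-labelled heads. The cbtOE arrays read 8.98 and 9.90, so the signal was lowest where the label says over-expression and highest where it says RNAi. The log2 difference was 0.55 ± 0.20 (SE, 2 arrays per genotype) and did not pass (limma adjusted p = 0.137). With the cbtOE arrays left out of the fit it passed (adjusted p = 0.0279). Whether the 2 altered labels are exchanged, or whether the probe set reads RNA of a transgene, was not tested. Because this goes against the label, the genotype is called RNAi-labelled throughout, and the directions below are those of the labels, not of a measured loss of *cbt*.

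*Dcr-2*, the gene of the Dicer-2 nuclease, was the called gene with the lowest adjusted p among those named below. It read 8.74 and 8.79 in control heads, 8.52 and 8.65 in cbtOE heads, and 12.96 and 12.87 in RNAi-labelled heads. The groups lay far apart at both times, at 17.8-fold (log2 4.15 ± 0.09 SE, adjusted p = 0.000485). *r2d2*, whose product binds double-stranded RNA together with Dicer-2, fell by 0.70 on the log2 scale, from 7.05 and 7.16 to 6.35 and 6.45 (adjusted p = 0.0276). The other 11 genes of the small RNA machinery on the table did not pass, while 8.75% of all genes passed.

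Of the 8516 genes, 248 were higher (2.91%) and 497 lower (5.84%) on the RNAi-labelled arrays, 745 in all (8.75%), by limma at an adjusted p under 0.05. At an unadjusted p under 0.05 there were 2697 of the 8516, the background for the unadjusted counts of the lists below. Among all 10893 probe sets 1589 were higher and 1760 lower at that level. Each of the 745 differed in the same direction at ZT3 and at ZT15. The fit nearly fixes this in advance, because a disagreement between the times raises its spread. Of the higher ones 71 and of the lower ones 142 differed at least 2-fold. Among all probe sets 939 passed (8.62%), 343 higher (3.15%) and 596 lower (5.47%), so that 36.5% of the calls were higher. Centring the arrays on cytosolic ribosomal protein genes turned that split to 544 higher and 422 lower, 56.3% higher, while it moved all differences by 0.08. The number of calls depended on the arrays in the fit. With the cbtOE arrays left out 1923 probe sets passed. Fewer passed with any 1 of the 4 compared arrays left out, and fewest without a control array. In such a fit the spread came only from the genotypes that kept both arrays, which without a control array were cbtOE and RNAi-labelled. Whether the fall in calls came from that spread or from the control values was not tested.

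Without any model, 230 probe sets (2.11%) differed at least 2-fold in the same direction at both times, 89 higher (0.817%) and 141 lower (1.29%). Of these 208 also passed the fit. At 1.5-fold the counts were 278 (2.55%) and 433 (3.98%), and at 3-fold 36 (0.330%) and 43 (0.395%). As a yardstick, 128 probe sets differed 2-fold between the 2 times in control heads and 117 in RNAi-labelled heads. At ZT3 alone 420 probe sets (3.86%) were 2-fold apart between the genotypes, and at ZT15 alone 411 (3.77%). Only 4 probe sets (0.0367%) were 2-fold apart in opposite directions at the 2 times. Across probe sets, which are not independent replicates, Pearson's r between the difference at ZT3 and that at ZT15 was 0.726. In 50 of the 89 higher probe sets (0.459% of all tested) both RNAi-labelled arrays lay at least 2-fold above each of the other 4 arrays, and in 73 of the 141 lower ones (0.67%) at least 2-fold below each of them.

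**Figure D1:**
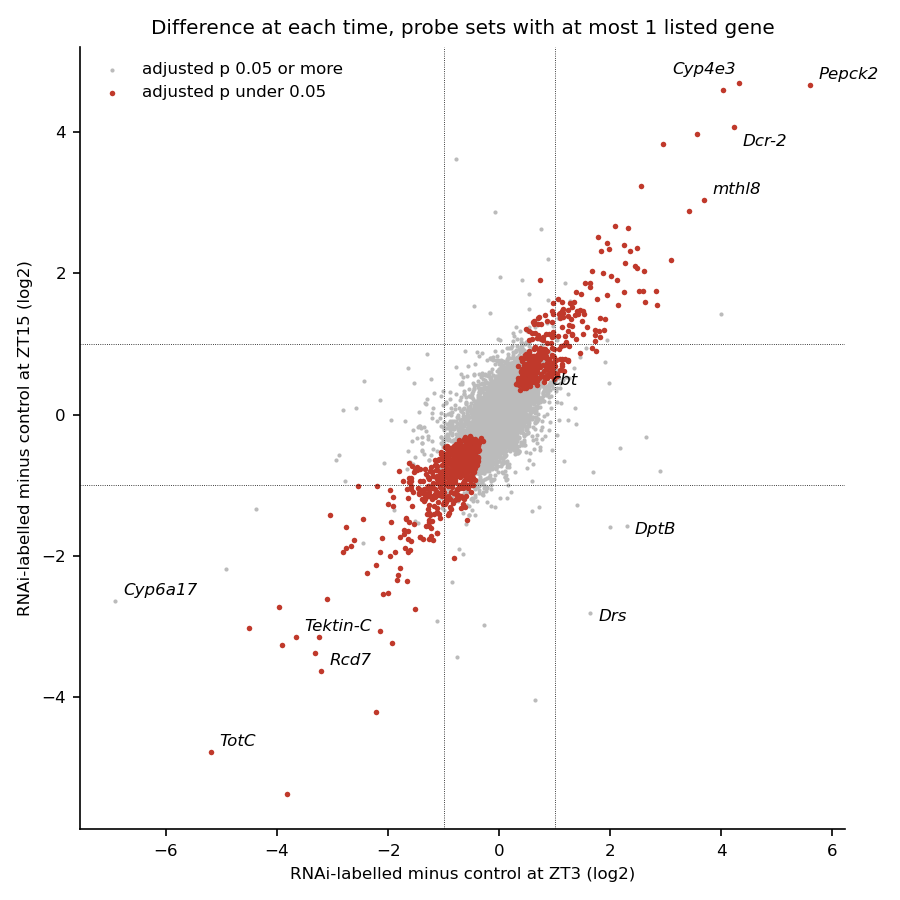
Log2 difference between the RNAi-labelled and the control array at ZT3 (horizontal axis) and at ZT15 (vertical axis) for each probe set with at most 1 listed gene, red with an adjusted p under 0.05 and grey otherwise, with dotted lines at 2-fold. *Pepck2* lies at 5.60 and 4.67, *TotC* at -5.18 and -4.78, and *Drs* and *DptB* lie to the lower right, higher at ZT3 and lower at ZT15.

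The largest increase was in *Pepck2*, a paralog of the gluconeogenic gene *Pepck1*. It read 5.44 and 5.18 in control heads, 5.67 and 5.77 in cbtOE heads, and 11.04 and 9.85 in RNAi-labelled heads. The gap of 35.2-fold (log2 5.14 ± 0.31 SE, adjusted p = 0.00587) was many times the spread within either genotype. *Cyp4e3*, a cytochrome P450 gene, stood at 7.34 and 6.99 on the control arrays and at 11.65 and 11.70 on the RNAi-labelled arrays, 22.8-fold higher (log2 4.51 ± 0.34, adjusted p = 0.00745). *CG3397*, chosen after its values were seen because it has no symbol of its own, went from 2.66 and 2.71 to 6.70 and 7.30 (19.9-fold, adjusted p = 0.00313). On the control arrays it lay near the lowest value of the table, 2.32. No detection calls were used here, so folds against signals this low, also for *mthl8*, *mey*, *Jhedup* and *GstE4* below, may be understated.

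The receptor gene *mthl8*, of the Methuselah-like family of G protein-coupled receptors, rose 10.3-fold, from 3.79 and 3.62 to 7.47 and 6.66. *Cyp6a8*, a cytochrome P450 gene known to be induced by foreign compounds, rose by 2.32 on the log2 scale, from 7.87 and 7.77 to 10.11 and 10.17. *Adk3*, an adenylate kinase gene, rose by 2.16, and *mey*, which encodes a zona pellucida domain protein of the extracellular matrix, rose by 2.34. *Adk3* also lay above control (6.78 and 6.49) on the cbtOE arrays, at 7.49 and 7.23. In all 4 genes the RNAi-labelled and control groups did not overlap, with adjusted p of 0.00587 to 0.00639. Named genes were picked for their differences, and the share of all genes without overlap was not counted. Here and below, groups that did not overlap are therefore a description and no further support.

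*Obp28a*, an odorant-binding protein gene, rose by 2.17 ± 0.37 (adjusted p = 0.0357), from 5.86 and 6.07 to 8.46 and 7.82. On the cbtOE arrays it read 6.33 and 7.36, above control as well. *CheA87a*, of a chemosensory protein family, rose by 1.82, and *BBS9*, which encodes a subunit of the ciliary BBSome complex, rose by 1.85. *BBS9* also lay above control (4.60 and 4.45) on the cbtOE arrays, at 5.47 and 5.31. *Hasp*, whose product is a scaffold protein of the synaptic cleft, stood at 9.94 and 9.47 on the control arrays and at 11.50 and 11.34 on the RNAi-labelled arrays (adjusted p = 0.00951). *Jhedup*, a carboxylesterase gene related to juvenile hormone esterase, rose by 2.28, *jef* by 2.28 and the long noncoding RNA *lncRNA:CR32553* by 2.42. *jef* read 8.73 and 8.67 on the cbtOE arrays, between control (7.23 and 7.47) and RNAi-labelled (9.71 and 9.56).

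The largest decrease was in *TotC*, a Turandot gene known to be induced by stress. It read 10.40 and 10.80 in control heads and 5.21 and 6.02 in RNAi-labelled heads, 31.7-fold lower (log2 -4.98 ± 0.32 SE, adjusted p = 0.00639). In cbtOE heads it read 13.01 and 12.43, above control, so the 3 genotypes did not overlap. *Sid*, which encodes a stress-induced DNase, was ordered the same way, with 7.72 and 8.22 on the control arrays, 5.73 and 5.69 on the RNAi-labelled arrays and 10.46 and 10.61 on the cbtOE arrays. It fell by 2.26 ± 0.15 (adjusted p = 0.00639). The third gene of this list on the table, *TotB*, lay low on all 4 arrays, at 3.19 and 3.41 against 2.61 and 2.88, and did not pass.

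*Rcd7*, named for a screen for centrosome defects, read 8.56 and 8.69 in control heads and 5.35 and 5.05 in RNAi-labelled heads, 10.7-fold lower (adjusted p = 0.00447). *Tektin-C*, which encodes a filament protein of ciliary and flagellar microtubules, read 7.87 and 7.29 against 4.22 and 4.13, 10.6-fold lower (adjusted p = 0.00639). On the cbtOE arrays both stayed at 7.20 or above, near control. *CG9512*, chosen after its values were seen, stood at 11.14 and 11.15 on the control arrays and at 7.81 and 7.77 on the RNAi-labelled arrays (log2 -3.35 ± 0.10, adjusted p = 0.0011).

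Other decreases were in genes of varied function. *Syt12*, of the synaptotagmin family, fell by 2.61 on the log2 scale, and *lncRNA:CR32368* fell by 3.21. *Alp6*, an alkaline phosphatase gene, fell by 2.31 and was as low on the cbtOE arrays, at 4.08 and 4.34 against 4.43 and 4.40. *Atg17*, which encodes a scaffold of the complex that starts autophagy, read 7.65 and 7.15 in control heads and 5.70 and 5.14 in RNAi-labelled heads. *S* (*Star*), whose product carries ligands of the epidermal growth factor receptor out of the endoplasmic reticulum, fell by 2.01. *Erasp* fell by 2.33, *Iyd*, an iodotyrosine deiodinase gene, by 1.76, and *CtsL3*, a cathepsin L gene, by 1.70. *ninaD*, a scavenger receptor gene needed for carotenoid uptake, read 7.26 and 6.27 against 5.55 and 4.63, so the groups did not overlap (log2 -1.68 ± 0.31, adjusted p = 0.0396).

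**Figure D2:**
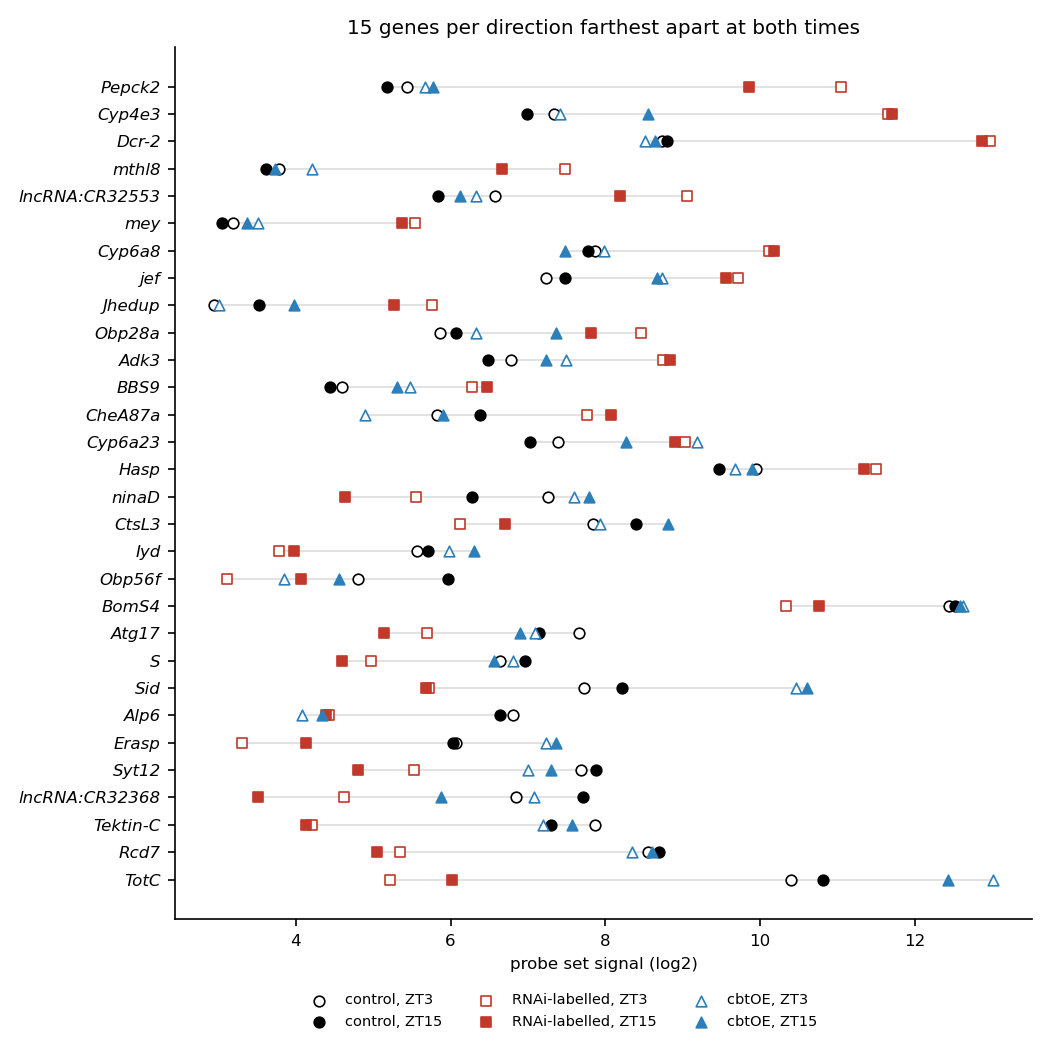
Log2 signal on each of the 6 arrays (horizontal axis) for the 15 genes per direction farthest apart at both times, 1 row per gene, with open symbols for ZT3 and filled ones for ZT15, circles for control, squares for RNAi-labelled and triangles for cbtOE. The 2 RNAi-labelled points of *Pepck2* and *Dcr-2* lie to the right of both control points, and those of *TotC*, *Rcd7* and *Tektin-C* to the left.

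In sugar and energy metabolism single genes passed and most pathway members did not, as was so over all genes (8.75% passed). Of 8 gluconeogenesis genes *Pepck2* passed (12.5%, against 2.91% higher over all genes). *Pepck1* itself, the known target of *cbt*, read 12.86 and 12.48 in control heads and 13.18 and 13.04 in RNAi-labelled heads, a difference of 0.44 ± 0.18 that did not pass (adjusted p = 0.173). Of 14 sugar-responsive genes 2 fell (5.84% fell over all genes), a count that was 0 without the time term or either control array and 1 without either RNAi-labelled array, while 2 also passed as higher with the cbtOE arrays left out. *Lst*, which encodes limostatin, a hormone known to limit insulin release, read 10.20 and 9.74 against 8.94 and 8.22, 2.62-fold lower (adjusted p = 0.00687). *foxo*, the transcription factor gene held in check by insulin signalling, read 8.20 and 7.89 against 7.34 and 6.87 (adjusted p = 0.034). On the cbtOE arrays *Lst* lay above control, at 11.09 and 10.61, and *foxo* below it, at 7.14 and 7.23.

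Both insulin-like peptide genes of the brain that passed were higher. *Ilp2* read 9.85 and 9.74 in control heads and 10.33 and 10.24 in RNAi-labelled heads (adjusted p = 0.0293), and *Ilp5* read 9.34 and 9.29 against 9.79 and 9.69 (adjusted p = 0.0492). Neither passed without the intensity trend. *ImpL2*, which encodes a secreted protein that binds insulin-like peptides and was chosen after its values were seen, rose 2.51-fold, from 9.87 and 9.58 to 11.16 and 10.93 (adjusted p = 0.0088). In each of the 3 genes the RNAi-labelled and control arrays did not overlap. On the cbtOE arrays *ImpL2* (10.40 and 10.52) and *Ilp5* (9.68 and 9.75) also lay above control, and *Ilp2* (9.65 and 9.59) lay below it. In bulk heads, fewer cells of a type and less RNA per cell cannot be told apart, here and in every result below.

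*UGP*, the gene of the enzyme that makes UDP-glucose for glycogen, fell by 1.45 on the log2 scale, from 7.25 and 6.95 to 5.93 and 5.37 (adjusted p = 0.00891), and the sugar transporter gene *sut2* rose by 0.80. Of 12 lipid mobilisation genes 1 rose (8.33%, against 2.91% over all genes), the perilipin gene *Lsd-2* at 0.57. The 2 that fell (16.7%, against 5.84%) were *Acox57D-d* at -0.92 and *Arc42* at -0.72. *Acox57D-d* also lay below control on the cbtOE arrays, at 6.26 and 6.86. Of 16 fatty acid and glyceride synthesis genes 2 fell (12.5%, against 5.84%), the acyltransferase genes *Agpat4* at -1.08 and *mdy* at -0.68. *Odc1*, the ornithine decarboxylase gene of polyamine synthesis, fell by 1.05. It was the called 1 of 15 amino acid breakdown genes (6.67%, against 5.84% lower over all genes). In glycolysis 0 of 10 genes passed by limma and in the respiratory chain 0 of 58, with 2 and 13 at an unadjusted p under 0.05. Over all genes 8.75% passed, and 2697 of 8516 had an unadjusted p under 0.05. The medians of the glycolysis and respiratory chain lists, 0.14 and -0.01, stood beside 0.007 over all genes.

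Several immune effector genes were lower on the RNAi-labelled arrays. Of 16 antimicrobial peptide and Bomanin genes 6 fell (37.5%) and 0 rose by limma, against 5.84% lower over all genes. The median difference was -0.41. There were 7 lower and 2 higher at an unadjusted p under 0.05, against 2697 of 8516 genes in either direction. *BomS4*, of the short Bomanin peptides that are secreted on activation of the Toll pathway, read 12.44 and 12.52 in control heads and 10.33 and 10.76 in RNAi-labelled heads (log2 -1.93 ± 0.13, adjusted p = 0.00639). *Drsl4*, a drosomycin-like gene, read 10.98 and 11.24 against 9.33 and 10.06, *BomT2* 12.36 and 12.46 against 11.08 and 11.44, and *BomS5* 12.03 and 12.22 against 11.18 and 11.23. In all 4 genes the groups did not overlap, and the cbtOE arrays lay above control, between 12.82 and 13.22 for *Drsl4* and *BomS5*. The list counted 4 lower genes without the RNAi-labelled ZT3 array, 3 lower and 2 higher without the RNAi-labelled ZT15 array, and 0 without either control array.

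*Drs* and *DptB* behaved otherwise. *Drs*, the drosomycin gene, read 8.87 and 8.94 on the control arrays but 10.52 at ZT3 and 6.13 at ZT15 in RNAi-labelled heads. *DptB*, a diptericin gene, read 9.30 and 8.18 in control heads and 11.59 and 6.60 in RNAi-labelled heads. Both thus lay above control at ZT3 and below it at ZT15, and neither passed (adjusted p = 0.764 and 0.848). *Mtk*, the metchnikowin gene, chosen after its values were seen, read 11.60 and 11.04 against 12.24 and 6.99, with the same order (adjusted p = 0.38). With 1 array per genotype and time, the difference between the times was not tested. A test would have to take the time difference to be equal in control and cbtOE heads.

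Upstream of these genes 12.5% of the peptidoglycan recognition list and 6.67% of the Toll and Imd signalling list passed. Both shares lay near the 8.75% over all genes. *PGRP-LB*, which encodes an amidase that limits Imd signalling, rose by 0.80, from 5.73 and 4.89 to 6.28 and 5.95, as the called 1 of 8 peptidoglycan recognition genes. On the cbtOE arrays *PGRP-LB* read 6.44 and 6.05, above control as well. *psh*, which encodes a protease upstream of Toll, fell by 0.48 (adjusted p = 0.0499) as the called 1 of 15 Toll and Imd signalling genes. Of 12 heat shock and co-chaperone genes 1 fell (8.33%, against 5.84% over all genes). It was *stv*, the starvin co-chaperone gene, which fell by 0.92, from 9.63 and 9.47 to 8.76 and 8.51.

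**Figure D3:**
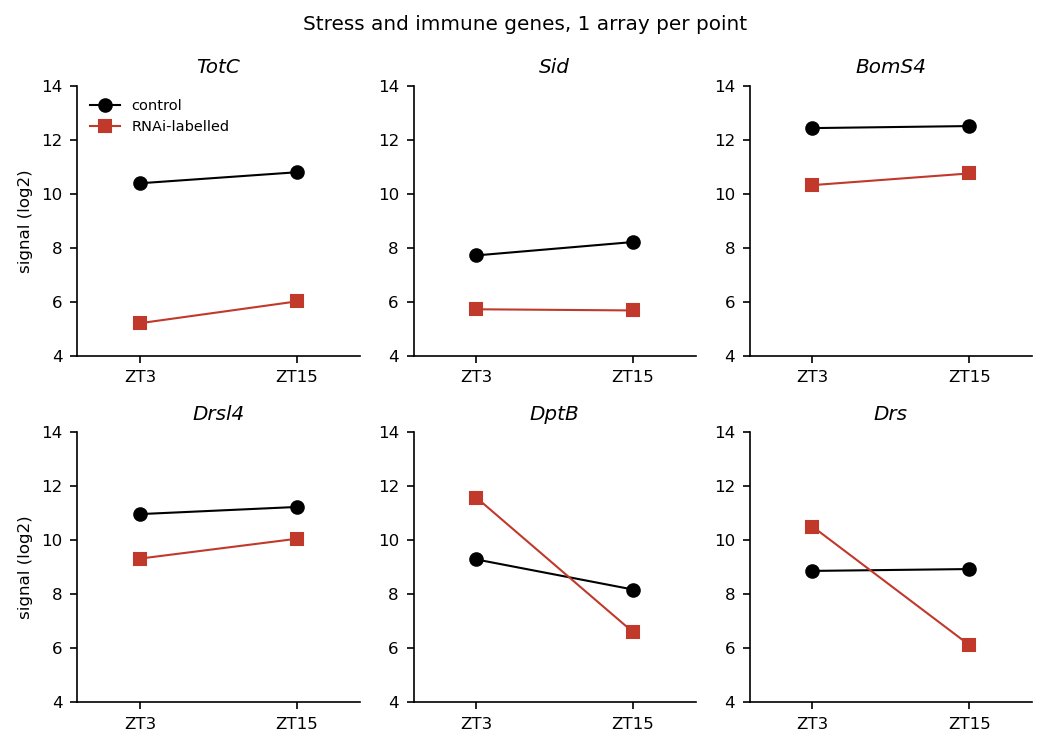
Log2 signal (vertical axis) at ZT3 and ZT15 for 6 stress and immune genes, 1 panel per gene and 1 array per point, with control in black and RNAi-labelled in red. The red line lies below the black one in *TotC*, *Sid*, *BomS4* and *Drsl4* and crosses it in *DptB* and *Drs*.

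Of 17 hemocyte markers 6 fell (35.3%, against 5.84% over all genes) and 0 rose by limma, with a median of -0.39. There were 12 lower and 2 higher at an unadjusted p under 0.05, against 2697 of 8516 genes in either direction. *srp*, the GATA factor gene of blood and fat body, read 9.50 and 9.02 in control heads and 8.57 and 8.38 in RNAi-labelled heads (adjusted p = 0.0274). *eater* and *NimC1*, which encode phagocytosis receptors, fell by 0.68 and 0.65. The matrix genes *Glt*, *Col4a1* and *Ppn* fell by 0.67, 0.58 and 0.39. *Hml*, the hemolectin gene widely used as a hemocyte marker, read 8.87 and 8.33 against 9.14 and 8.87 and did not pass (log2 0.40, adjusted p = 0.105). The mean over the marker list was 8.71 and 8.55 in control heads and 8.27 and 8.26 in RNAi-labelled heads, and the part of hemocyte number in the immune values above was not tested. The count of 6 was 3 with ribosomal protein centring and 3 without the intensity trend, 2 without the time term, 2 without the RNAi-labelled ZT15 array, and 0 without the RNAi-labelled ZT3 array or either control array.

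Detoxification genes changed in both directions. Of 71 cytochrome P450 genes 5 rose (7.04%, against 2.91% over all genes) and 7 fell (9.86%, against 5.84%). There were 31 at an unadjusted p under 0.05, 25 of them lower, against 2697 of 8516 genes in either direction. Beside *Cyp4e3* and *Cyp6a8*, *Cyp6a23* read 7.39 and 7.03 in control heads and 9.03 and 8.90 in RNAi-labelled heads, and *Cyp4p1* 9.45 and 8.79 against 10.90 and 10.27. Both were also higher on the cbtOE arrays, at 9.18 and 8.26 and at 10.78 and 10.06. *Cyp4e1* fell by 1.11, although its paralog *Cyp4e3* rose. *Cyp6d2* read 9.23 and 8.77 against 6.69 and 7.76, a difference of -1.77 (adjusted p = 0.0448). *Cyp6a17*, known for a role in temperature preference and chosen after its values were seen, read 9.93 and 9.65 on the control arrays and 3.02 on the RNAi-labelled ZT3 array. It differed from control by -6.91 at ZT3 and by -2.65 at ZT15, and did not pass (adjusted p = 0.0549). With the cbtOE arrays left out, 20 P450 genes passed as lower, against 2 without the RNAi-labelled ZT3 array, 3 without the time term and 0 without either control array.

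Glutathione transferase genes counted 2 higher (6.67%) and 6 lower (20.0%) of 30, against 2.91% and 5.84% over all genes. *GstE4* read 4.05 and 4.36 in control heads and 6.19 and 5.91 in RNAi-labelled heads, 3.60-fold higher (adjusted p = 0.0111), while *GstE7* read 9.09 and 8.69 against 7.76 and 7.91. Of 19 UDP-glycosyltransferase genes *Ugt36E1* rose by 1.41 (5.26% of the list), and *Ugt50B3*, *Ugt301D1* and *Ugt37D1* fell by 0.92, 0.78 and 0.76 (15.8%). On the cbtOE arrays *Ugt36E1* also lay above control, at 8.06 and 7.35. In both families, then, members moved in opposite directions. The 6 lower transferase genes were 4 without the RNAi-labelled ZT15 array, 1 without the time term, and 0 without the RNAi-labelled ZT3 array or either control array. The 3 lower glycosyltransferase genes were 1 without the RNAi-labelled ZT15 array and 0 without the RNAi-labelled ZT3 array or either control array.

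More odorant-binding protein genes fell than rose. Of 28 measured, 9 fell (32.1%, against 5.84% over all genes) and 1 rose (3.57%, against 2.91%), with a median of -0.35. *Obp56a* read 7.91 and 7.92 on the control arrays, 6.67 and 6.50 on the RNAi-labelled arrays and 9.70 and 9.30 on the cbtOE arrays (log2 -1.33 ± 0.13, adjusted p = 0.00901). *Obp83cd* read 7.51 and 7.10 against 5.88 and 6.14, *Obp57a* 9.88 and 9.88 against 8.53 and 8.82, and *Obp56f* fell by 1.79. The groups did not overlap in these genes, and the gene that rose was *Obp28a*. *Obp56f* also lay below control on the cbtOE arrays, at 3.85 and 4.56. Among 18 odorant, gustatory and ionotropic receptor genes 2 rose (11.1%, against 2.91% over all genes). *Orco*, the shared odorant co-receptor gene, rose by 0.85 from 4.26 and 4.21 on the control arrays, and *Or63a* rose by 0.92. The count of 9 lower genes was 3 without the RNAi-labelled ZT3 array, 6 without the time term, 6 without the RNAi-labelled ZT15 array and 0 without either control array.

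Of 22 neuropeptide and neurohormone genes 3 rose (13.6%, against 2.91% over all genes), *Ilp2* and *Ilp5* as above and *SIFa*. The 1 that fell (4.55%, against 5.84%) was *Nplp3*. Another 7 were higher at an unadjusted p under 0.05 (2697 of 8516 genes in either direction), and the median was 0.19. With the cbtOE arrays left out 8 passed as higher, and without the intensity trend, or without any 1 of the 4 compared arrays, 0 did. Without the time term 1 did. *SIFa*, the gene of a peptide of a few neurons in the central brain, read 7.66 and 7.65 in control heads and 8.35 and 8.34 in RNAi-labelled heads (adjusted p = 0.0463). Of 26 ion channel genes 2 rose (7.69%) and 1 fell (3.85%), against 2.91% and 5.84% over all genes. The count of higher genes was 10 with the cbtOE arrays left out, 6 with ribosomal protein centring or above the 40th percentile of signal, 1 without the trend, the time term or either RNAi-labelled array, and 0 without either control array. *Ca-alpha1D*, the gene of the L-type calcium channel, read 9.39 and 9.29 against 10.63 and 10.47, 2.31-fold higher (adjusted p = 0.00818). The potassium channel gene *Elk* rose by 1.30, and the sodium channel gene *NaCP60E* fell by 0.76. On the cbtOE arrays *Elk* (5.59 and 5.30) also lay above control and *NaCP60E* (7.73 and 7.52) below it.

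*Galphao*, the gene of a G protein alpha subunit abundant in the brain and chosen after its values were seen, rose 3.01-fold, from 9.23 and 9.12 to 11.05 and 10.48. *Gabat*, the gene of the enzyme that breaks down GABA and also chosen after its values were seen, rose by 1.29, from 6.35 and 6.60 to 7.67 and 7.85. Of 13 neuron markers 1 rose (7.69%, against 2.91% over all genes). It was *Vmat*, the vesicular monoamine transporter gene, at 9.54 and 9.47 against 10.42 and 10.25. The mean over the neuron markers was 9.77 and 9.80 in control heads and 9.99 and 9.75 in RNAi-labelled heads, so these groups overlapped.

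Of 11 glia markers *e* (*ebony*), which encodes an enzyme that conjugates amine transmitters, fell by 0.76 (9.09% of the list, against 5.84% over all genes). There were 5 lower at an unadjusted p under 0.05, against 2697 of 8516 genes in either direction. The count of lower genes was 4 with the cbtOE arrays left out, 3 above the 40th percentile of signal, 2 without the RNAi-labelled ZT3 array, and 0 without the RNAi-labelled ZT15 array, the time term or either control array. *Gat*, the GABA transporter gene, read 7.04 and 7.68 against 6.32 and 5.78, and the astrocyte gene *alrm* read 9.15 and 9.77 against 8.72 and 8.60, but neither passed (adjusted p = 0.0587 and 0.058). The mean over the glia markers was 9.08 and 9.19 in control heads and 8.81 and 8.70 in RNAi-labelled heads.

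In the eye, 1 of 24 phototransduction genes rose, *inaC*, the eye protein kinase C gene, at 11.63 and 11.10 against 12.17 and 11.62, and 1 fell, *ninaD*. Each was 4.17% of the list, against 2.91% higher and 5.84% lower over all genes. There were 16 at an unadjusted p under 0.05, 13 of them higher, against 2697 of 8516 genes in either direction. The median of the list was 0.20. Of 6 photoreceptor markers *gl*, the transcription factor gene *glass*, rose by 0.47 (16.7% of the list, against 2.91% over all genes). The mean over the 6 markers was 10.88 and 10.95 in control heads and 11.28 and 11.32 in RNAi-labelled heads. Among 18 eye pigment genes 0 passed by limma (8.75% over all genes), with 6 at an unadjusted p under 0.05.

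**Figure D4:**
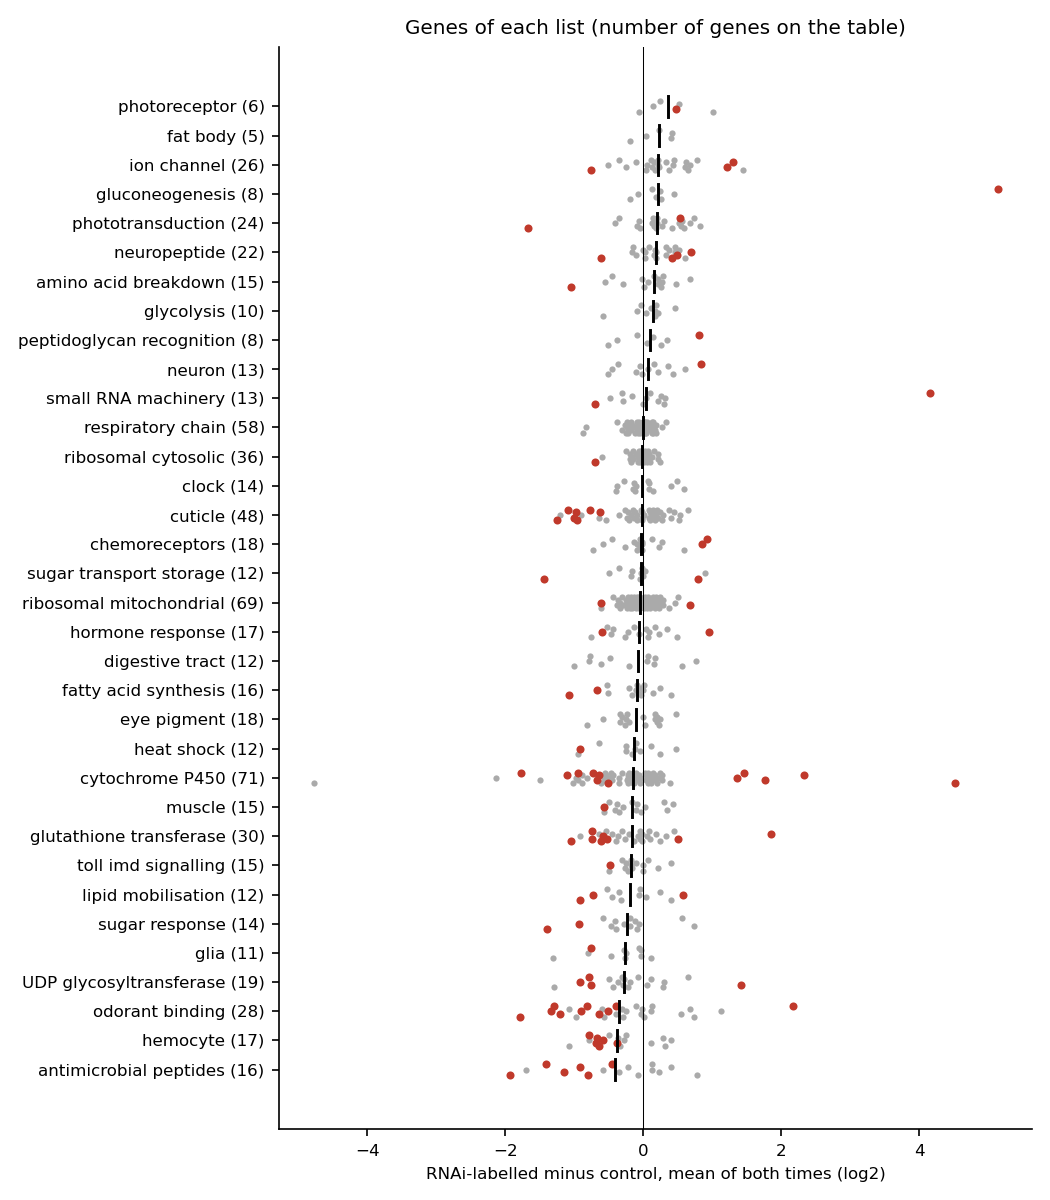
Log2 difference between RNAi-labelled and control arrays, averaged over both times, for the genes of each list with 5 or more genes on the table. Points are genes, red with an adjusted p under 0.05 and grey otherwise, and black ticks are list medians, which reach -0.41 for antimicrobial peptides and 0.35 for photoreceptor markers.

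Of 14 clock genes 0 passed by limma and 3 had an unadjusted p under 0.05. Over all genes 8.75% passed and 2697 of 8516 had an unadjusted p under 0.05, so 0 in a list this short is near that share. *per* read 5.24 and 7.65 in control heads and 5.74 and 8.12 in RNAi-labelled heads (adjusted p = 0.0701), and *cry* read 8.70 and 7.51 against 9.09 and 8.30 (adjusted p = 0.0553). *tim* lay 0.86 below control at ZT3 and 0.09 above it at ZT15, and *Clk* 0.96 below and 0.18 above. These 4 genes had the day and night order of the control arrays.

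Of 17 hormone response genes *Blimp-1*, an ecdysone-induced repressor gene, rose by 0.95, and *Hr3*, a nuclear receptor gene, fell by 0.59. Each was 5.88% of the list, against 2.91% higher and 5.84% lower over all genes. On the cbtOE arrays *Hr3* also lay below control, at 7.74 and 8.14. Of 48 cuticle protein genes 7 fell (14.6%, against 5.84% over all genes) and 0 rose by limma, with a median of -0.02, and the count was 2 without the time term, 2 and 1 without the RNAi-labelled ZT3 or ZT15 array, and 0 without either control array. *fit*, a gene of the head fat body expressed more in females, read 12.69 and 13.39 against 11.10 and 11.59, 3.23-fold lower (adjusted p = 0.00687). The yolk protein genes *Yp1*, *Yp2* and *Yp3*, the other female markers, differed by -0.03, -0.04 and -0.12 and did not pass. They read 14.08 to 14.32 on these arrays, up to the highest value of the table, so a difference may not be detectable there. Of 36 genes listed by symbol as cytosolic ribosomal protein genes, *RpLP0-like* fell by 0.71 (2.78% of the list, against 5.84% over all genes). It read 7.57 and 7.64 in control heads, far below the list mean of 12.30 and 12.23. Of 69 mitochondrial ribosomal protein genes *mRpS9* rose by 0.67 and *mRpL39* fell by 0.62. Each was 1.45% of the list, against 2.91% higher and 5.84% lower over all genes. Of 15 muscle markers *Zasp52*, a Z-disc protein gene, fell by 0.57 (6.67%, against 5.84%). By limma 0 of 5 fat body, 0 of 12 digestive tract and 0 of 2 male markers passed, with 4, 0 and 0 at an unadjusted p under 0.05. Over all genes 8.75% passed, and 2697 of 8516 had an unadjusted p under 0.05.

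Calls were spread over the chromosomes. On arm 2L 40 genes were higher and 112 lower of 1503 (10.1%), on 2R 55 and 109 of 1762 (9.31%), on 3L 41 and 94 of 1654 (8.16%), on 3R 76 and 119 of 2115 (9.22%), and on X 35 and 54 of 1383 (6.44%). On the small chromosome 4, 1 gene was higher and 7 lower of 65 (12.3%). Of the 8516 genes 170 (2.00%) were 2-fold apart at both times. Of 169 with a known arm, 13 (7.69%) had such a gene as a direct neighbour among the genes measured, against 331 of 8482 genes on these arms (3.90%). They included *Cyp6a17* and *Cyp6a23*, which lay on opposite sides of control, and 3 genes in a row on 3R, *CG10553*, *CG10560* and *CG10562*, at -2.10, -1.28 and -1.21, all chosen after their values were seen. Whether probe sets of close paralogs, such as the 2 P450 genes here or the Bomanins, read each other's transcripts was not tested.

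Some genes have several probe sets that differed. For 38 called genes with more than 1 probe set there were 48 dimmer ones, of which 33 shared the sign, 8 were also called in that direction and 3 were called in the other. The latter were *Prosap*, -0.70 on its brightest probe set against 2.00 and 0.71, and *teq*, -0.75 against 3.15. In 53 further genes only a dimmer probe set was called. *RFeSP*, which encodes the Rieske subunit of respiratory complex III, differed by 3.77 on a probe set that read 4.31 and 4.22 on the control arrays and by 0.13 on its brightest one. *Tsf1*, the transferrin gene, differed by 2.64 and 0.23 in the same way. For *Galphaq*, of the phototransduction G protein, dimmer probe sets lay at -1.64 and -1.24 and the brightest at 0.27. These genes were chosen after their values were seen, and the transcripts that each probe set detects are not given in the sources used here.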

How the data were processed

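Per the submitters' processing notes, the deposited log2 signals were made with Affymetrix Expression Console. Its version, summarisation method and genome build are not given in the sources used here, and the log2 scale was read from the values. No further normalization or filter was applied, and each probe set reached 4.00 or more on at least 1 array. Gene names came from the platform annotation, and symbols were updated through RefSeq (Release 6 plus ISO1 MT). Of those tested 9286 had 1 gene (9260 matched by gene ID), 276 several and 1331 none, and 29 and 95 of the latter kinds were called.

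The fit used limma 3.58.1 (R 4.3.3). Genotype and time were additive terms over 6 arrays, eBayes took a trend with intensity, and two-sided p-values were adjusted by Benjamini-Hochberg over 10893 probe sets, 2 residual and 3.29 prior degrees of freedom and a median SE of 0.121. The scripts were tested on simulated data. An exact permutation test of 2 arrays against 2 cannot go below 0.333. The number of arrays limits the precision. Time pairs the arrays and its term is in the fit. Pearson's r was 0.990 between the 2 arrays of either genotype and 0.977 between genotypes at each time.

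The 28 gene lists and 9 marker lists, the members and the rules were chosen with earlier results of these data known. Named were *cbt*, the 15 called genes per direction with the largest smaller difference of both times (bare CG and CR numbers, which 311 called genes have, left out), up to 4 called genes per list, members of the small RNA, gluconeogenesis, Turandot and clock lists, and genes 2-fold apart in opposite directions at the 2 times. Alternatives were 4 arrays only, a filter at the 40th percentile, no trend, no time term, quantile normalization, ribosomal protein centring, gene means, other folds, and each array left out. Figures were drawn with matplotlib 3.10.9.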

Additional observations from a re-analysis of the deposited data

Results flagged for a closer look

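*Drs* differed from control by 1.64 at ZT3 and by -2.81 at ZT15, and *DptB* showed differences of 2.29 and -1.58. The probe sets 1632719_at (2.00 and -1.59) and 1641419_at (1.41 and -1.28), for which the platform annotation lists no gene, showed the same order. In these 4 probe sets both genotypes were measured at both times and the differences pointed opposite ways, but the difference between the times was not tested.

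Control probe sets, which the comparison left out, were read as well. AFFX-BioB-3_at, of a bacterial hybridisation control series, read 4.71 and 5.54 in control heads, 4.68 and 4.93 in cbtOE heads and 7.93 and 7.76 in RNAi-labelled heads, 2.72 above control on average. The other bacterial control probe sets differed less, such as AFFX-BioC-3_at by 0.02 and AFFX-BioDn-3_at by -0.13. The added poly-A controls stood higher on the control ZT15 array than on the control ZT3 array, such as AFFX-DapX-5_at at 7.97 against 4.67, with the RNAi-labelled arrays between them at 6.18 and 5.94. AFFX-Dm-K01486-1_at read 2.90 and 3.52 in control heads, 5.52 and 6.60 in cbtOE heads and 4.95 and 6.53 in RNAi-labelled heads, 2.53 above control. The platform annotation lists no gene for either.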

How the results depend on the processing

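Against 343 higher and 596 lower probe sets, 832 and 1091 passed with only the 4 arrays compared, 176 and 311 with no time term (no replicate block, that is, without the pairing by time), and 544 higher with ribosomal protein centring. All 939 calls were among those of the 4-array fit. With 1 array left out, higher calls ranged from 0 to 815 and lower calls from 1 to 1085. Without the control ZT3 array 2220 probe sets, and without the control ZT15 array 1575, had an unadjusted p under 0.05. A genotype left with 1 array was taken to vary like the others. Probe sets apart in 1 direction at both times, 89 and 141 at 2-fold, were 278 and 433 at 1.5-fold, 36 and 43 at 3-fold, and 46 and 93 above the 40th percentile of mean signal. With 1 array left out only 1 time remains for the pair, and they were 147 to 158 and 253 to 273. The *cbt* difference of 0.55 passed with the 4 arrays only (adjusted p = 0.0279), and ranged from 0.22 to 0.88 with 1 array left out, passing without either cbtOE array (0.0288 and 0.0292). Neither *DptB* nor *Drs* had a fixed direction: without the RNAi-labelled ZT3 array they stood at -1.69 and -2.82, and without the RNAi-labelled ZT15 array at 2.40 and 1.65. Of 86 named called genes, 86 passed with 4 arrays, 83 after quantile normalization, 80 with ribosomal protein centring, 69 with no trend, 51 with no time term, 36 and 50 without the RNAi-labelled ZT3 or ZT15 array, and 0 and 1 without the control ZT3 or ZT15 array, and 0 changed sign in any of these fits.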

Other observations

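Genes known only by a CG number and probe sets with no listed gene held differences as large as those of the named genes. Of 1331 probe sets with no listed gene 45 were higher and 50 lower by limma. 1635549_at read 12.15 and 12.52 in control heads and 8.23 and 9.26 in RNAi-labelled heads, and 13.86 and 13.57 in cbtOE heads. 1623635_at read 9.86 and 11.05 against 6.04 and 5.68, with 12.21 and 11.91 in cbtOE heads, so both were ordered as *TotC* was. *CG9616* read 7.47 and 7.36 against 2.97 and 4.34 (log2 -3.76, adjusted p = 0.0186). *Jhbp7*, of the juvenile hormone-binding protein family, fell by 1.13, and its neighbour *CG11854* rose by 2.90. All were chosen after their values were seen.

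The control probe set AFFX-Dm-M15077-1_at, for which the platform annotation lists no gene, read 5.55 and 7.05 in control heads, 4.85 and 6.81 in cbtOE heads and 2.64 and 2.69 in RNAi-labelled heads.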
